A study of Rattus norvegicus with 10 samples.

Results

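The SIBLING genes code for secreted, acidic phosphoproteins of the mineralized matrix of bone and dentin. Their members were found on the array by accession: AF260922 for Mepe, and the RefSeq accessions NM_012881 for Spp1, NM_012587 for Ibsp and NM_012790 for Dspp. These are 4 of the 4803 accessions spotted. No accession matched Dmp1, which was not analysed here.

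Female Wistar rats of 12 weeks were used, and the right tibia of each rat was treated. In LOAD (n = 5) the treatment was 4-point bending, 300 cycles at 2 Hz with the peak force set at 60 N, and in SHAM (n = 5) the tibia was squeezed with the same device without bending. The contralateral left tibia of each rat was the control, so that the 10 arrays held 20 tibiae in 4 groups: loaded, control of LOAD, sham-loaded and control of SHAM. RNA came from the tibial shaft 6 hours after the session, with both ends, the periosteum and the marrow taken off. Cy3 marked the treated tibia on 3 arrays of each group, and Cy5 on the other 2. A SHAM rat is not untreated, and LOAD bends and squeezes, so LOAD minus SHAM is the comparison the study uses for bending alone. The ratio reported throughout is the log2 ratio of the treated tibia to the control tibia on the same array after loess, and the level is the normalized log2 intensity of 1 tibia. A level follows the probe as well as the transcript, so levels are compared between tibiae and not between genes.

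SIBLING proteins bind integrins through an RGD sequence, and most carry acidic, serine-rich stretches that bind to hydroxyapatite. Ibsp (bone sialoprotein) is made by osteoblasts and promotes the first deposition of mineral, whereas Spp1 (osteopontin) holds back crystal growth and anchors osteoclasts to bone. Mepe is made by osteocytes, and its acidic carboxy-terminal peptide inhibits mineralization after release by proteases, a step that Phex counters. Dspp is cleaved into the main non-collagenous proteins of dentin and is known mainly from teeth. In bone, these genes are used as readouts of osteoblasts and osteocytes.

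In the rat assembly GRCr8 the members lie on chromosome 14 in the order Spp1, Mepe, Ibsp, Dmp1 and Dspp, all on the minus strand, within 262.8 kb from Spp1 to Dspp. Mepe and Ibsp are neighbours, 7.6 kb apart with no annotated gene lying wholly between them. Spp1 lies 104.6 kb from Mepe. The RefSeq promoter table held all 4 genes. The 250 bases before the start used in that table are shown, 5′ to 3′ on the strand of the gene. For Mepe, Ibsp and Dspp this start is the upstream end of the annotated gene. For Spp1 it lies 891 bases inside the gene, so the Spp1 window is sequence within the annotated span and not before it. The Mepe window lies within an annotated long non-coding RNA gene that also spans Mepe. Whether these sequences bear on the values below was not tested. Capitals mark the letters TATAAA of the TATA box, the similar run TTTAAA, the letters CCAAT of the CCAAT box, the AP-1 site TGANTCA, the RUNX core ACCACA and the letters TGACGTC of the cAMP response element, each searched on both strands.
Mepe, chr14:5736859-5737108, minus strand: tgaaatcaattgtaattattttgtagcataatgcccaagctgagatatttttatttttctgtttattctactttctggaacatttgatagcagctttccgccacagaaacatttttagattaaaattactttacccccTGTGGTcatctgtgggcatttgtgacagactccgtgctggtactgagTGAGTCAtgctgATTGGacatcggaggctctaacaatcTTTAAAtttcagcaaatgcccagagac
Spp1, chr14:5619805-5620054, minus strand: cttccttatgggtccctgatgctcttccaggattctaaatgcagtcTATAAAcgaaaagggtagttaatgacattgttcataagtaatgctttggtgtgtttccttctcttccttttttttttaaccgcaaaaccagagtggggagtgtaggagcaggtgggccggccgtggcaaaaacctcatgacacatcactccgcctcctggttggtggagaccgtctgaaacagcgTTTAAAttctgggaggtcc
Ibsp, chr14:5757243-5757492, minus strand: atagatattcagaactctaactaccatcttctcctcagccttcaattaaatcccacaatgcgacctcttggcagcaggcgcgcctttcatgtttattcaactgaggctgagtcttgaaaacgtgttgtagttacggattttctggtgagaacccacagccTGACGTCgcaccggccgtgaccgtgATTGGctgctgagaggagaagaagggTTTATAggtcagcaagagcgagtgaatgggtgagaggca
Dspp, chr14:5876340-5876589, minus strand: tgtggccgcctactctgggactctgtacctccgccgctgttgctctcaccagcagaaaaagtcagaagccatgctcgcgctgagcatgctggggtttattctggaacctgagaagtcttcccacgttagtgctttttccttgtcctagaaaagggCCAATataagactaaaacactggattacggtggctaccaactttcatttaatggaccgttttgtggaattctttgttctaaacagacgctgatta

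The Mepe window held TGANTCA 65 bases before the start, CCAAT on the opposite strand at 53, TTTAAA at 27 and ACCACA on the opposite strand at 112. The Spp1 window, inside the gene, held TTTAAA at 19 bases before the start used and TATAAA at 204, and the sequence before the upstream end of Spp1 was not analysed here. Ibsp held TGACGTC at 90 bases, CCAAT on the opposite strand at 65 and TATAAA on the opposite strand at 39. Dspp held CCAAT alone, at 95 bases. Of 33469 promoter windows of this length, TGANTCA was present in 6.34%, TGACGTC in 2.8%, TTTAAA in 12.3%, TATAAA in 12.9%, ACCACA in 14.5% and CCAAT in 34%. A match is a run of letters and not a shown binding site, and TTTAAA was added to the search after the sequences were read.

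The probes of Mepe, Spp1 and Ibsp were bright. Each carried signal in 20 of 20 channels, at a median brightness above 93.9%, 96% and 93.3% of the spots of its array. Dspp carried signal in 9 of 20 channels, and in both channels on 4 of 10 arrays, at a median brightness above 24.6% of spots, so its values lie near the limit of detection. Spot confidence ran from 0.83 to 0.99 for Mepe, from 0.85 to 0.99 for Spp1, from 0.89 to 0.98 for Ibsp and from 0.24 to 0.7 for Dspp. On the 10 arrays, between 52.4% and 81.6% of spots carried signal in both channels.

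The labels leave 3 doubts that bear on the values. SHAM 1 has 1 label field that says LOAD, against its title, description and file header, and it was kept in SHAM. The file headers give consecutive numbers to both tibiae on 8 arrays, but set tibia 3 beside 26 on LOAD 4 and tibia 25 beside 4 on SHAM 4, so the contralateral pairing of these 2 arrays is uncertain. The labels and headers put the treated tibia of LOAD 2 in Cy5, but its ratios correlated at -0.33 to -0.13 with the 3 other Cy5 arrays and at -0.16 to 0.27 with the 6 Cy3 arrays, above 0.05 with 3 of those 6. In all, 8 of 45 pairs of arrays correlated under -0.3, and the lowest value was -0.64. The direction was kept as labelled, and values with LOAD 2 turned, or with the controls of the arrays numbered 4 exchanged, are given where they matter.

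Mepe had a higher ratio in the loaded tibia, whereas Spp1, Ibsp and Dspp had mean ratios near 0 or ratios that scattered to both sides. At an unadjusted p under 0.05 in limma, Mepe was the 1 member of 4 in LOAD, against 3.34% of the 4707 genes tested. The same count was 0 of 4 in SHAM, against 0.68% of genes, and 1 of 4 in LOAD minus SHAM, against 1.49%. None of the 4 passed a false discovery rate of 20% in any of these comparisons, and neither did any other gene (0%). With 5 arrays, an exact test of the ratios against 0 cannot go below p = 0.0625.

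The log2 ratios of Mepe were 1.43, 0.30, 1.24, 1.00 and 0.34 on LOAD 1 to LOAD 5. On SHAM 1 to SHAM 5 they were 0.81, 0.11, 0.62, -0.83 and -0.06. All 5 loaded tibiae were above their controls, which held for 1.79% of the 4472 genes without a missing value. The sham-loaded tibiae lay on both sides, and the groups overlapped, since LOAD 2 and LOAD 5 fell below SHAM 1 and SHAM 3. The mean was 0.86 ± 0.52 (SD, n = 5), 1.82-fold, in LOAD (limma, SE 0.223, unadjusted p = 0.00235, false discovery rate 1, 2-sided exact p = 0.0625). In SHAM it was 0.13 ± 0.64 (limma unadjusted p = 0.568). LOAD exceeded SHAM by 0.73 (95% interval 0.04 to 1.42; limma unadjusted p = 0.0395, false discovery rate 0.999; 2-sided exact permutation p = 0.0873). The unadjusted p of LOAD minus SHAM was over 0.05 without LOAD 1, LOAD 3, LOAD 4, SHAM 2, SHAM 4 or SHAM 5 (6 of 10 arrays left out in turn, limma p from 0.0159 to 0.1) and under 7 of 16 other settings, so the count of 1 member there rests on those choices. The study chose Mepe on these arrays, so the size of this value is not independent evidence of its direction. The study called Mepe higher in LOAD at its false discovery rate threshold, over fewer spots and with duplicate spots modelled. It also reported higher Mepe RNA in loaded than control tibiae by real-time RT-PCR, with both of its primer sets. Between LOAD and SHAM its RT-PCR passed with 1 of these sets. In other rats, it reported a borderline rise of the protein after a single session and none after repeated loading. These reports were not tested here. For LOAD the unadjusted limma p was under 0.05 with any 1 array left out. It was 0.229 with an intensity trend in the limma prior, 0.105 with no normalization and 0.0601 with a dye term once LOAD 2 was turned.

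Mepe had the 4th lowest p of the 4707 genes in LOAD. Its LOAD mean lay above that of 99.98% of them, against 98.34% for Ibsp, 56.43% for Spp1 and 13.72% for Dspp. In SHAM the means of Mepe, Spp1, Ibsp and Dspp lay above those of 92.08%, 93.10%, 94.37% and 32.74% of genes. The SD of the Mepe ratio over the 10 arrays was itself above that of 97.18% of genes. A numeric code in the file headers placed the arrays in 4 batches, called scan batches here. Neither the labels nor the study's methods say what the code stands for. Within these batches LOAD exceeded SHAM by 0.41, 0.62, 1.82 and 0.40 on the log2 scale. The difference kept its sign in each batch, and the 1.82 came from the batch of the arrays numbered 4. That batch and the batch of the arrays numbered 5 (0.40) each set 1 LOAD array against 1 SHAM array of the opposite dye. LOAD 4 and SHAM 5 had the treated tibia in Cy3, and SHAM 4 and LOAD 5 in Cy5. The part of dye in these 2 values was not tested. Without both arrays numbered 4, LOAD minus SHAM was 0.46 (limma unadjusted p = 0.159), and with their controls exchanged it was 0.31 (limma unadjusted p = 0.316). In that exchange the ratio of LOAD 4 became -0.06 and that of SHAM 4 became 0.23, so that 4 of 5 loaded tibiae were above their controls.

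The dye of the treated tibia moved with the ratio of Mepe. In LOAD the arrays in Cy3 gave 1.43, 1.24 and 1.00 and those in Cy5 gave 0.30 and 0.34. In SHAM the Cy3 arrays gave 0.81, 0.62 and -0.06 and the Cy5 arrays 0.11 and -0.83. Every Cy3 array of LOAD was above every Cy5 array, which was the case for 10.1% of genes, while both dyes overlapped in SHAM. Across both groups, Cy5 lowered the ratio by 0.86 (Cy5 minus Cy3, -0.86, SE 0.209, limma false discovery rate 0.186; exact permutation p = 0.03), and 1.83% of genes passed 20% in this comparison. With 1 array left out the dye effect of Mepe lay between -1.05 and -0.69, and its exact permutation p was 0.05 or more in 8 of 10 cases, up to 0.075. LOAD and SHAM had equal numbers of arrays in each dye orientation, so LOAD minus SHAM stayed at 0.73 with a dye term. With that term the LOAD mean became 0.78 (limma unadjusted p = 0.000261). With LOAD 2 turned and a dye term the LOAD mean was 0.53 and LOAD minus SHAM 0.47 (limma unadjusted p = 0.185).

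**Figure D1:**
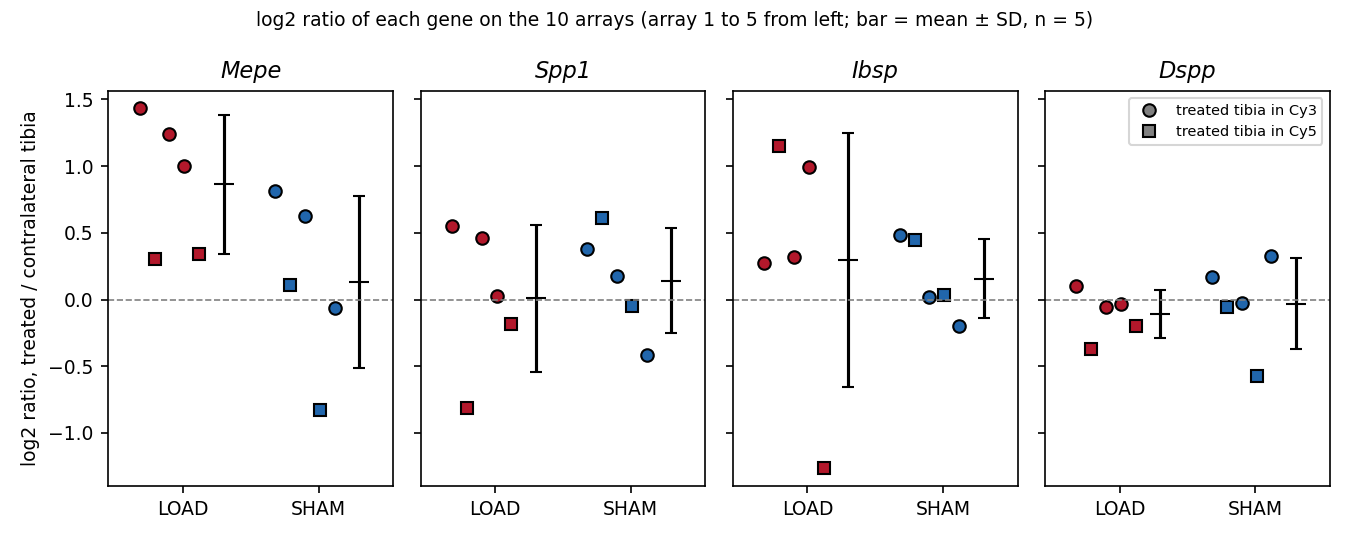
Log2 ratio of the treated to the contralateral tibia (vertical axis) for Mepe, Spp1, Ibsp and Dspp on 5 LOAD (red) and 5 SHAM (blue) arrays, with circles where the treated tibia was in Cy3 and squares where it was in Cy5; the bar is the mean ± SD. Mepe lies above 0 on all 5 LOAD arrays, from 0.30 to 1.43, with the Cy5 squares lowest, whereas LOAD values of Ibsp reach from -1.26 to 1.15.

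Spp1 did not show the difference of Mepe. Its log2 ratios were 0.55, -0.81, 0.46, 0.02 and -0.18 on LOAD 1 to 5, and 0.38, 0.61, 0.18, -0.05 and -0.41 on SHAM 1 to 5. Each group had 3 arrays above 0 and 2 below, and the ranges overlapped almost fully. The mean was 0.01 ± 0.55 in LOAD and 0.14 ± 0.39 in SHAM (SD, n = 5 each). LOAD minus SHAM was -0.13, with a 95% interval from -0.71 to 0.44 (limma unadjusted p = 0.626; exact permutation p = 0.69), so a difference of up to 0.44 in the direction of Mepe lies within the error. LOAD 2 gave the lowest value of its group, and without it LOAD minus SHAM was 0.07.

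Ibsp scattered most in the loaded tibiae. Its log2 ratios were 0.27, 1.15, 0.32, 0.99 and -1.26 on LOAD 1 to 5, against 0.48, 0.45, 0.02, 0.03 and -0.20 on SHAM 1 to 5. Both groups had 4 arrays above 0 and 1 below, and the SHAM values all lay inside the LOAD range. The mean was 0.30 ± 0.95 in LOAD and 0.16 ± 0.30 in SHAM (SD, n = 5 each). LOAD minus SHAM was 0.14, with a 95% interval from -0.69 to 0.97 (limma unadjusted p = 0.718; exact permutation p = 0.825). Within the 4 scan batches this difference was 0.25, 0.30, 0.96 and -1.06, and it became -0.07 without LOAD 2 and -0.03 without LOAD 4. Without LOAD 5, the 1 array below 0, Ibsp was 0.68 in LOAD (limma unadjusted p = 0.00152, false discovery rate 0.619) and 0.53 in LOAD minus SHAM (limma unadjusted p = 0.0339, false discovery rate 0.855), so LOAD 5 decides whether Ibsp is under 0.05.

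Dspp was dim and close to 0. Its log2 ratios were 0.10, -0.37, -0.06, -0.03 and -0.20 on LOAD 1 to 5, and 0.17, -0.05, -0.03, -0.57 and 0.33 on SHAM 1 to 5. Both groups held values on both sides of 0 and overlapped. The mean was -0.11 ± 0.18 in LOAD and -0.03 ± 0.34 in SHAM (SD, n = 5 each), and LOAD minus SHAM was -0.08 (95% interval -0.44 to 0.28; limma unadjusted p = 0.634). With the controls of the arrays numbered 4 exchanged, LOAD minus SHAM was -0.49 (limma unadjusted p = 0.0379, false discovery rate 0.905). The ratio of Dspp too was lower with the treated tibia in Cy5, by -0.38 (limma false discovery rate 0.29; exact permutation p = 0.01, the smallest this design can give). Without SHAM 4 this was -0.26 (exact permutation p = 0.05).

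Levels in the 4 groups of tibiae give the ratio of Mepe from both of its sides. Its level was 9.83, 12.30, 11.07, 10.56 and 12.13 in the controls of LOAD 1 to 5, and 11.26, 12.60, 12.31, 11.56 and 12.46 in the loaded tibiae of the same rats. In SHAM the controls stood at 10.88, 11.90, 12.38, 11.62 and 11.09 and the sham-loaded tibiae at 11.69, 12.01, 13.00, 10.79 and 11.03. All 4 groups overlapped. Control tibiae of LOAD were the most spread, over 2.47 on the log2 scale, and the loaded tibiae spanned 1.34. The controls of LOAD averaged 11.18 ± 1.04 and those of SHAM 11.57 ± 0.61, a difference of -0.40 (limma single channel, SE 0.462, unadjusted p = 0.402; exact permutation p = 0.476). Loaded tibiae averaged 12.04 ± 0.59 and sham-loaded tibiae 11.70 ± 0.88, a difference of 0.33 (SE 0.462; limma unadjusted p = 0.477; exact permutation p = 0.484). Neither step between rats passed, and the larger ratio of LOAD held both a higher mean of the loaded and a lower mean of the control tibiae. With the controls of the arrays numbered 4 exchanged, the difference between controls turned to 0.39 and that between treated tibiae rose to 0.82 (limma unadjusted p = 0.0242, false discovery rate 0.989).

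None of the 4 members passed an unadjusted p of 0.05 between the controls, where 5.23% of 4472 genes did, or between loaded and sham-loaded tibiae, where 4.61% did. For Spp1 the 4 group means were close, 12.19 ± 0.39 loaded, 12.18 ± 0.92 in its controls, 12.29 ± 0.43 sham-loaded and 12.15 ± 0.31 in its controls. The Spp1 control of LOAD 2, at 13.59, was the highest of the 20 tibiae, and the control of LOAD 1, at 11.23, the lowest. For Ibsp the means were 11.49 ± 0.63, 11.19 ± 0.36, 11.49 ± 0.49 and 11.34 ± 0.47 in the same order. The loaded tibia of LOAD 5, at 10.41, stood apart as the lowest Ibsp level, 1.17 below the next loaded tibia, whereas its control, at 11.67, was the highest control of LOAD. For Dspp the means were 6.73 ± 0.51, 6.84 ± 0.50, 6.86 ± 0.39 and 6.89 ± 0.20. In whole bone RNA, fewer cells of a type and less RNA per cell cannot be told apart.

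**Figure D2:**
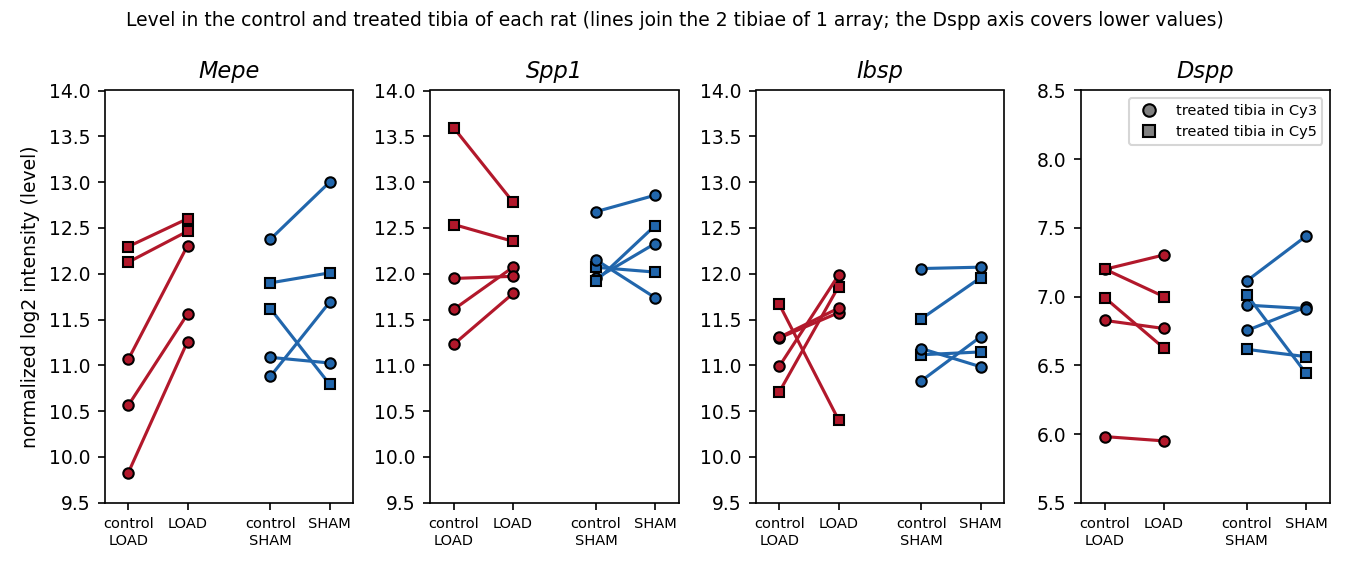
Level (normalized log2 intensity, vertical axis) in the control and the treated tibia of each of the 5 LOAD (red) and 5 SHAM (blue) rats, joined by a line, for each gene; circles and squares mark the treated tibia in Cy3 and Cy5, and the Dspp axis covers lower values. All 5 LOAD lines of Mepe rise, from controls that span 2.47 to loaded tibiae that span 1.34, while Ibsp of LOAD 5 falls to 10.41.

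Mepe and Spp1 varied together from rat to rat. Over the mean level of both tibiae of the 10 rats, Pearson's r was 0.87 (permutation p = 0.00053, 0.00318 after Benjamini-Hochberg adjustment over 6 pairs) and Spearman's rho 0.87 (permutation p = 0.00214, adjusted 0.0128). LOAD 1 was lowest in both genes, at 10.54 for Mepe and 11.51 for Spp1, and SHAM 3 and LOAD 2 were highest in both. Without LOAD 2 and SHAM 3, the rats farthest from the median, r was 0.83. Within LOAD r was 0.87 and within SHAM 0.96 over 5 rats each. A scan batch held too few arrays for a value of its own, and after the batch means were taken out r was 0.92. Over all the settings tried, r lay between 0.83 and 0.92.

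Of all the genes, few followed Mepe as closely. Among the 4470 other genes without a missing value, 7 had an r with the mean level of Mepe at least as high as that of Spp1 (0.157%), and 13 had an r with Spp1 at least as high as that of Mepe (0.291%). Each point is 1 array as well as 1 rat, so hybridization, scan and spot on the array are shared by both genes, and their part was not tested. No other pair of members passed in level. Mepe with Ibsp gave 0.38 (adjusted permutation p = 0.847), with opposite signs in LOAD (-0.70) and SHAM (0.98). Spp1 with Ibsp gave 0.18, and the 3 pairs with Dspp lay between -0.26 and 0.00.

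No pair of members passed in ratio. Mepe with Spp1 gave r = 0.46 over 10 arrays (permutation p = 0.186, adjusted 0.557), and 0.67 when the means of LOAD and SHAM were taken out. Within the 5 LOAD arrays r was 0.91 for Mepe with Spp1, 0.92 for Mepe with Dspp and 0.93 for Spp1 with Dspp, and within SHAM it was 0.46, 0.68 and -0.10. In LOAD each of these genes had a higher ratio on every Cy3 array than on every Cy5 array, as did 10.1% of 4472 genes. With group and dye taken out over all 10 arrays, r was 0.70, 0.31 and 0.06 in the same order. The part of dye in the LOAD values was not tested. Mepe with Dspp gave 0.50 (permutation p = 0.139), which rested on LOAD 1 and SHAM 4, since it was -0.08 without them. Spp1 with Ibsp gave 0.00 (adjusted permutation p = 0.995), with 0.92 in SHAM and -0.19 in LOAD. Adjusted p over the 6 pairs lay between 0.557 and 0.995, and ratio and level correlations were not tested against each other.

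The ratio of Mepe exceeded that of Spp1 on every LOAD array. Mepe minus Spp1 was 0.88, 1.11, 0.78, 0.97 and 0.52 on LOAD 1 to 5, and 0.43, -0.50, 0.44, -0.77 and 0.35 on SHAM 1 to 5. The lowest LOAD value was above the highest SHAM value, so the groups did not overlap, and SHAM lay on both sides of 0. The mean was 0.85 ± 0.22 in LOAD and -0.01 ± 0.58 in SHAM (SD, n = 5 each; exact permutation p = 0.00794, the smallest that 5 against 5 can give, and 0.0476 adjusted over 6 pairs of members). Of 4471 genes set against Spp1 in this way, Mepe was the 1 gene with every LOAD array above every SHAM array (0.0224%). For single ratios, 5 of 4472 genes did so (0.112%), and no member was among them. This comparison was added after the values were seen, and Mepe was chosen on these arrays, so it is not independent evidence of a change in Mepe. With LOAD 2 turned it was 0.42 (exact permutation p = 0.349), and with the controls of the arrays numbered 4 exchanged 0.49 (exact permutation p = 0.0873).

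Against Dspp, Mepe was higher by 0.97 ± 0.36 in LOAD and 0.16 ± 0.48 in SHAM (exact permutation p = 0.0317, adjusted 0.0951), which did not pass the adjustment, and the unadjusted p was over 0.05 in 6 of 10 cases with 1 array left out, without LOAD 1, LOAD 3, LOAD 4, SHAM 2, SHAM 4 or SHAM 5. Against its neighbour Ibsp it was higher by 0.57 ± 0.98 in LOAD and -0.02 ± 0.58 in SHAM (exact permutation p = 0.27). Spp1 and Ibsp kept close to each other in SHAM, with a difference of -0.02 ± 0.17, and not in LOAD, with -0.29 ± 1.19 (SD, n = 5 each). The difference of these means did not pass (exact permutation p = 0.698), and the spreads were not tested.

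**Figure D3:**
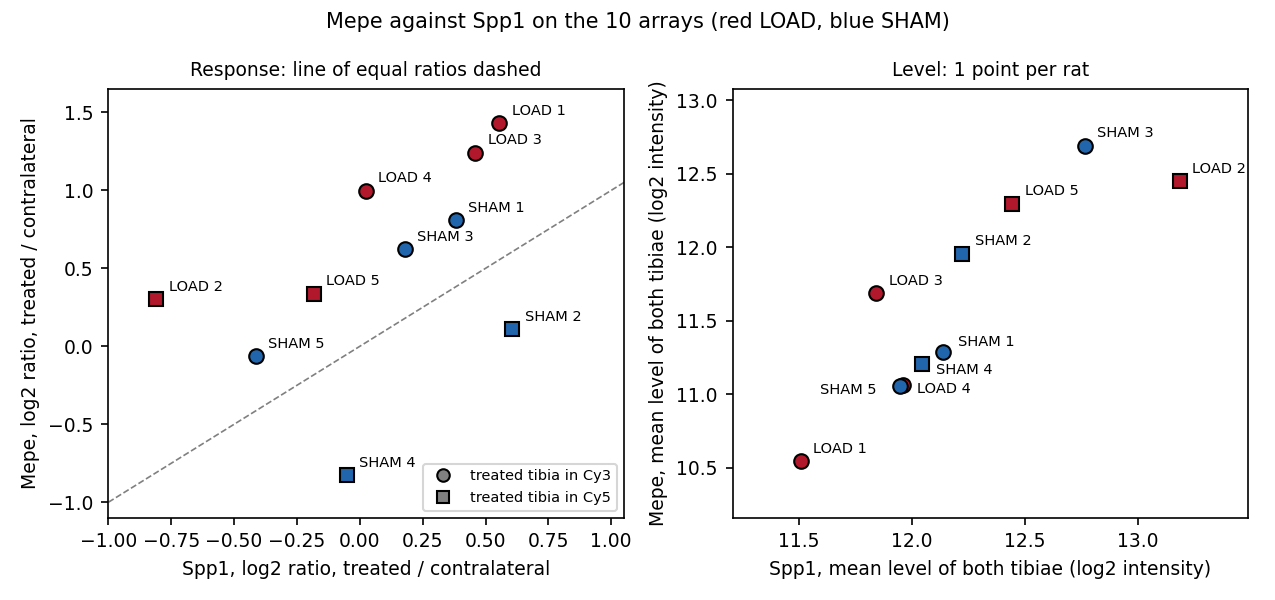
Mepe (vertical) against Spp1 (horizontal) on the 10 arrays, as log2 ratios of treated to contralateral tibia on the left, with equal ratios dashed, and as mean log2 level of both tibiae on the right; LOAD is red, SHAM blue, circles Cy3 and squares Cy5. All 5 LOAD arrays lie above the dashed line while SHAM 2 and SHAM 4 lie below it, and on the right both levels rise together, with r = 0.87.

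Of the marker lists measured, the ratio of Ibsp lay nearest to the summed level of osteoblast and matrix genes, with leukocyte genes close behind. Of the list of osteoblast and bone matrix genes, 9 were on the array, and the summed level of these 9 differed between treated and control tibia by 0.05, 0.74, -0.02, 0.97 and -1.53 (log2) on LOAD 1 to 5. On SHAM 1 to 5 it differed by 0.41, 0.01, 0.37, -0.14 and 0.16. LOAD 2 and LOAD 4 were high and LOAD 5 low in this sum and in Ibsp alike. Over 10 arrays the r between them was 0.91 (permutation p = 0.0017, adjusted 0.0544 over 32 relations of members with marker lists) and rho 0.66 (permutation p = 0.044, adjusted 0.352). Without LOAD 4 and LOAD 5 r was 0.64, and with batch means taken out 0.89. The relation therefore did not pass the adjustment and rested in part on those arrays, and with the mean ratio of the 9 genes in place of their sum r was 0.67. Ibsp gave r = 0.83 with the sum of 3 leukocyte genes (adjusted permutation p = 0.0781) and 0.67 with that of 3 erythroid genes (adjusted permutation p = 0.233), which were 0.43 and -0.08 without LOAD 2 and LOAD 5. The relation is thus not shown to be particular to matrix genes.

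Sparc (osteonectin), a collagen-binding glycoprotein of bone, was nearest to Ibsp in that list, with r = 0.93. Its log2 ratios were 0.02, 1.16, -0.05, 1.00 and -1.89 on LOAD 1 to 5 and 0.48, 0.04, 0.37, 0.01 and 0.15 on SHAM 1 to 5. Both genes had their highest values on LOAD 2 and LOAD 4 and their lowest on LOAD 5. The sum of the 9 genes ran close to Sparc on the arrays, so sum and Sparc are not separate relations with Ibsp. After Sparc the highest in the list were the proteoglycan gene Bgn with r = 0.62 and P4hb of collagen synthesis with 0.60. The lowest were the transcription factor genes Dlx5 and Msx2 with 0.02 and 0.00. Outside the list, Id2, Ctsh and Atp1b3 gave a higher r with Ibsp than Sparc did, 0.95 each. The 9 genes themselves did not pass in LOAD: 0 of 9 had an unadjusted p under 0.05 in limma, against 3.34% of all genes, and their median was 0.07 against -0.01 for all genes.

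**Figure D4:**
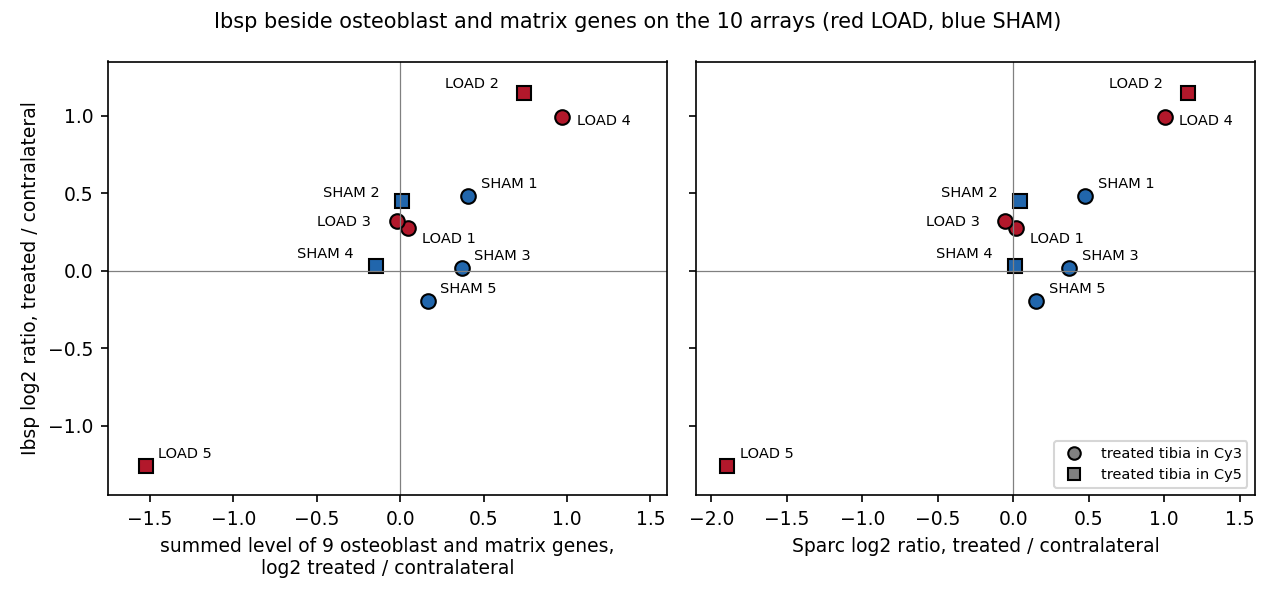
Log2 ratio of Ibsp (vertical) against the log2 ratio of the summed level of 9 osteoblast and matrix genes (left) and of Sparc (right), treated to contralateral tibia, on the 10 arrays; LOAD is red, SHAM blue, circles Cy3 and squares Cy5. LOAD 5 is lowest and LOAD 2 and LOAD 4 highest on both axes, and the other 7 arrays lie closer to 0. The sum runs close to Sparc, so the left and right panels are not separate relations.

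Markers of other cells were measured beside the members. The summed level of 16 skeletal muscle genes was lower in the loaded tibia on all 5 LOAD arrays, by -0.02, -0.11, -0.64, -1.03 and -0.31. On SHAM it differed by -0.12, 0.61, 0.04, 0.04 and -0.06. Of 17 muscle genes tested in ratio, 9 were lower in LOAD at an unadjusted p under 0.05 in limma, against 3.34% of all genes in either direction. Mepe was higher on the same 5 LOAD arrays, and over the 10 arrays its ratio gave r = -0.47 with the muscle sum (permutation p = 0.168, adjusted 0.536) and -0.83 with batch means taken out. The part of muscle tissue in the ratios was not tested. For 3 leukocyte genes the sum differed by -1.16 to 1.62 in LOAD and by -0.44 to 0.41 in SHAM, and for 3 erythroid genes by -1.18 to 1.09 and by -0.73 to 0.57. The other 5 osteocyte genes measured, without Mepe, gave sums that differed by -0.17 to 0.32 in LOAD and by -0.46 to 0.27 in SHAM. With this osteocyte sum, Mepe gave r = 0.78 (permutation p = 0.00732, adjusted 0.0781 over the same 32 relations) and 0.53 without LOAD 4 and SHAM 4. Dspp, near the limit of detection, gave r = 0.73 with it (permutation p = 0.0176, adjusted 0.141). The sum itself was higher on every Cy3 array (lowest 0.03, SHAM 5) than on every Cy5 array (highest -0.02, LOAD 5). The part of dye in these relations was not tested. None of the 32 relations passed the adjustment.

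Genes of the SIBLING pathway did not pass a false discovery rate of 20% in LOAD. Of the receptors and binding partners, 5 of 15 listed genes were on the array, among them Cd44, a receptor of osteopontin, and Itgb1, an integrin chain, and 0 of 5 had an unadjusted p under 0.05 in LOAD, against 3.34% of all genes. All 5 had a mean ratio above 0, as 47% of all genes did, with a median of 0.13, and Cd44 had 0.26 (SE 0.148) and Itgb1 0.17 (SE 0.106). Vtn, 1 of the 5, had 0.04 but carried signal in both channels on 0 arrays. Phex, the endopeptidase that counters the peptide of Mepe, had a ratio of 0.13 (SE 0.141) in LOAD and 0.01 in SHAM. Between the controls, Phex was 0.83 lower in LOAD than in SHAM rats (log2 difference -0.83, SE 0.233, limma unadjusted p = 0.00185, false discovery rate 0.603) and Itgb1 0.55 lower (-0.55, SE 0.189, unadjusted p = 0.00836, false discovery rate 0.843). Both had the same sign as the control difference of Mepe and missed the 20% threshold. The study called Phex lower in this comparison at its 20% threshold, over a smaller set of spots. Of 9 genes of mineralization and phosphate handling, 0 had an unadjusted p under 0.05 in LOAD, against the same 3.34%. Calca and Ahsg, both among the 9, carried signal in both channels on 0 arrays. The matrix Gla protein gene Mgp, an inhibitor of calcification, had -0.30 (SE 0.302).

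The genes most like each member were sought among 698 named genes with signal. In ratio over 10 arrays, Mepe was nearest to Ralgapa1 (r = 0.95), V2R2B (0.88) and Selp (0.86), and farthest from Baat (-0.82). Ralgapa1 and V2R2B were chosen on these arrays by the study, as Mepe was. For neither of them did its real-time RT-PCR find a significant difference between loaded and control tibiae, with either primer set. The study also reported that its spotted oligonucleotides can cross-react with other genes. Spp1 was nearest to Npr3 (0.86), Vldlr (0.86) and Gfra1 (0.84), and Ibsp to Id2, Ctsh and Atp1b3 (0.95 each). Dspp was nearest to Ptn (0.90). In level over the 20 tibiae, Mepe was nearest to Ralgapa1 (0.90), V2R2B (0.84) and Sparcl1 (0.73). Sparcl1 is the gene that follows Dspp on chromosome 14. Spp1 was nearest in level to Pdpn (0.90), known from osteocytes, to Npr3 (0.87) and to Calm2 (0.85), whereas Ibsp had no gene above 0.66 (Fnta). These correlations were ranked over many genes and the points share arrays and dyes, so they are descriptions.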

How the data were processed

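Each array compared the treated and the contralateral tibia of 1 rat. The authors scanned the slides and read the spots with BlueFuse (version 3.0 in the methods, 2.0 in the file headers). The deposited intensity per channel is not normalized, and the deposited confidence and signal probability are fractions. The authors' deposited matrix of log2 ratios equals the ratios of these intensities (largest difference 0.000527) and was used for this check alone.

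Spots with confidence under 0.11 were set to missing, M values were normalized by loess (span 0.3, 4 iterations), and genes missing on more than 1 array were dropped, which left 4707. A mean for LOAD and for SHAM was fitted per gene in limma 3.58.1 (R 4.3.3), with Benjamini-Hochberg adjustment. Levels came from loess, Aquantile and the single channel model of limma over 4472 genes (correlation of both channels 0.74). Exact permutation tests were 2-sided, and correlations used 100000 permutations. RNA was not pooled, per the methods, so each array is 1 rat. The fits were tested on simulated data.

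Of the accessions, 1184 were named, 1177 by RefSeq and 7 by the gene table of the study, which names Mepe. Promoters came from the RefSeq table of GRCr8. Signal means a probability of at least 0.5. Named besides the members were the genes of fixed lists with the lowest p, and per member the 3 nearest and 1 farthest in ratio and the 3 nearest in level, among genes with signal in both channels on at least 8 arrays. Sparc, P4hb, Bgn, Dlx5, Msx2, Cd44, Mgp, Vtn, Calca, Ahsg and the members of a list set beside Ibsp were named after their values were seen. Members, lists and tests were chosen with earlier results of these data known. The alternatives changed normalization, filters, dye, batch and block terms and the arrays included. Those that exchanged the dyes of LOAD 2 or the controls of the arrays numbered 4, and the relations with marker lists, were chosen after seeing the data. The list of proteases and kinases that act on these proteins is not reported here as a list.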

Additional observations from a re-analysis of the deposited data

Results flagged for a closer look

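The Ibsp level of the loaded tibia of LOAD 5 was 10.41, far from the other 4 loaded tibiae, the nearest of which stood at 11.57. The gap was 0.74 of the range of the group. It was the 1 such value among 24 groups of 5 values. Chance gives about 1 in 20 groups, so this count is close to what chance gives. The spot had a confidence of 0.91 and signal in both channels, and the Sparc ratio of the same array was -1.89. What set this tibia apart was not tested.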

How the results depend on the processing

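Mepe had a mean log2 ratio above 0 in LOAD, and above that of SHAM, under all 26 alternatives, from 0.53 to 1.00 and from 0.31 to 0.90. None of these reached a false discovery rate of 20%, and the unadjusted p of LOAD minus SHAM went over 0.05 in 13 of the 26. The correlation of the levels of Mepe and Spp1 passed under all 16 of its alternatives. Values near 0 turned in sign, as listed here on the log2 scale, and the cause was not tested.

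Median centring gave -0.13 for Spp1 in LOAD, and in LOAD minus SHAM -0.019 for Ibsp and 0.029 for Dspp. With no normalization the medians over all genes were -0.23 in LOAD and -0.42 in SHAM, Spp1 in LOAD was -0.33, Ibsp -0.028 and Dspp in LOAD minus SHAM 0.26. In SHAM, Mepe was then -0.26, Spp1 -0.25 and Ibsp -0.24, the dye effect (Cy5 minus Cy3) was 0.21 for Spp1 and 0.26 for Ibsp, and 9 genes passed 20% in LOAD and 2 in LOAD minus SHAM. The ratio correlations then all passed: Mepe with Spp1 0.85, with Ibsp 0.69 and with Dspp 0.86, Spp1 with Ibsp 0.70 and with Dspp 0.71, Ibsp with Dspp 0.70. Spp1 in LOAD was -0.022 with a dye term, -0.018 with scan batch as a block and -0.016 with the controls of the arrays numbered 4 exchanged.

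That exchange gave -0.49 for Dspp in LOAD minus SHAM (limma unadjusted p = 0.0379), 0.18 in SHAM and a dye effect of 0.051 for Dspp. Between controls it gave 0.39 for Mepe, 0.28 for Ibsp and 0.34 for Dspp (limma unadjusted p = 0.0471), with 3 genes past 20%, and between treated tibiae 0.24 for Ibsp and 0.070 for Dspp. Without both arrays numbered 4, Dspp in SHAM was 0.10, Ibsp in LOAD minus SHAM -0.066 and Dspp between controls 0.20. With LOAD 2 turned, Ibsp in LOAD was -0.16 and Dspp 0.036, and LOAD minus SHAM was 0.19 for Spp1, -0.32 for Ibsp and 0.067 for Dspp. A dye term besides gave -0.30 for Ibsp in LOAD, and in LOAD minus SHAM 0.17 for Spp1 and -0.41 for Ibsp. SHAM 1 counted as LOAD gave -0.039 for Mepe in SHAM and 0.018 for Dspp in LOAD minus SHAM. Scaling each channel to its median gave 0.10 for Dspp between controls, and between treated tibiae 0.014 for Ibsp and 0.18 for Dspp. Quantile normalization gave 0.0011 for Ibsp between treated tibiae.

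Mepe minus Spp1 was 0.42 with LOAD 2 turned and 0.49 with those controls exchanged. Mepe minus Dspp, past an unadjusted p of 0.05 but not the adjustment, lost that p at 0.56 with median centring or no normalization, 0.69 without both arrays numbered 4 and 0.54 with LOAD 2 turned, and Mepe minus Ibsp passed at 0.93 with LOAD 2 turned. For the ratios, r of Spp1 with Ibsp was 0.12 with median centring, 0.033 with an offset of 50, 0.015 as deviations from group means, 0.0083 without both arrays numbered 4 and 0.069 with LOAD 2 turned. The r of Spp1 with Dspp was -0.31 with median centring, and that of Ibsp with Dspp 0.34 as deviations from batch means and 0.00013 with the offset. For the levels, r of Mepe with Dspp was -0.039 after quantile normalization, -0.080 with scaled channels, -0.033 without the confidence filter, -0.54 without both arrays numbered 4, -0.0025 as deviations from group means and -0.40 from batch means.

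Leaving out each array in turn moved Spp1 between -0.13 and 0.21 in LOAD and -0.27 and 0.073 in LOAD minus SHAM. It moved Ibsp between -0.074 and 0.53 and Dspp between -0.22 and 0.0092 in LOAD minus SHAM, Mepe between -0.039 and 0.37 and Dspp between -0.12 and 0.10 in SHAM. Between controls the ranges were -0.32 to 0.27 for Spp1, -0.27 to 0.032 for Ibsp and -0.14 to 0.17 for Dspp, with 0 to 8 genes past 20%. Between treated tibiae they were -0.24 to 0.041, -0.13 to 0.27 and -0.27 to 0.067. For ratio correlations r ranged from -0.26 to 0.51 (Spp1 with Ibsp), -0.28 to 0.20 (Ibsp with Dspp) and 0.061 to 0.81 (Mepe with Dspp, passing without SHAM 5). For levels it ranged from -0.36 to 0.19 (Spp1 with Dspp), -0.41 to 0.28 (Mepe with Dspp), -0.0075 to 0.57 (Mepe with Ibsp) and -0.19 to 0.36 (Spp1 with Ibsp). Mepe minus Dspp ranged from 0.67 to 0.93, with an exact permutation p over 0.05 in 6 of 10 cases (up to 0.0635), and the dye effect of Ibsp from -0.60 to 0.33, above 0 without LOAD 5.

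Replicate numbers were not used as pairs, and correlations of the deviations of same-numbered arrays ran from -0.41 to 0.07. Same-numbered arrays shared a scan batch, and those numbered 4 and 5 differed in the dye of the treated tibia. These correlations therefore cannot settle whether the numbers pair the samples. With the replicate block, LOAD minus SHAM of Mepe stayed at 0.73 (limma unadjusted p = 0.0155), no call on a member changed, and 17 genes passed 20% between controls. Scan batch as a further term let 3 pass there. Signal limits Dspp alone among the members.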
